A study of Mus musculus with 8 samples.

Results

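The 161 genes that lie beside Tbx18 on mouse chromosome 9 were followed in cells that carry altered Tbx18 alleles. Members were the gene names of the array files, other than Tbx18, with a probe within 10 Mb of Tbx18 on chromosome 9 in the mm9 build, on both array designs of the study. They were 161 of 30199 gene names and were read by 218 probes, 82 of the genes below Tbx18 in coordinate and 79 above it. The rule used position and no measured value, but it was set with earlier results of these data known. Of the 161 names, 63 were those of clones, predicted genes or unnamed probes.

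GFP-positive cells were sorted from kidney rudiments of NMRI mouse embryos at stage E11.5, and their RNA was measured on 8 arrays of 1 colour. The 3 control pools came from Tbx18(GFP/+) embryos, which have 1 intact and 1 GFP allele of Tbx18. The 3 null pools, written Tbx18_null, came from Tbx18(GFP/GFP) embryos. The 2 Tbx18VP16 pools came from Tbx18(cre/+);Hprt(CAG:Tbx18VP16-GFP) embryos, in which Cre made from the Tbx18 locus switches on a fusion of Tbx18 with the VP16 activation domain, and GFP, at the Hprt locus. No group had 2 intact alleles of Tbx18, so every group carried an inserted sequence at the centre of the region studied. GFP marked cells through the Tbx18 locus itself in control and null pools, and through the transgene at Hprt in Tbx18VP16 pools. Each pool held about 100000 cells of both sexes from several sorts. Control and null were hybridised to the first array design and Tbx18VP16 to the second, on another slide scanned separately. For Tbx18VP16, genotype, design, slide and scan therefore cannot be told apart.

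The product of Tbx18, a T-box transcription factor, is made in the mesenchyme around the early ureter, and the embryo needs it to form the smooth muscle coat of the ureter. An allele made by gene targeting is passed on together with the DNA beside it, so that a null embryo has the neighbouring genes, too, in 2 copies from the chromosome that was targeted. Control embryos carry 1 such copy next to an unaltered chromosome. The sources used here do not give how much flanking DNA came with these alleles. Regulatory elements can also reach over long distances, and an insertion in one gene can change the RNA of the next. The genes beside a targeted gene are therefore read as a separate group from its possible targets elsewhere.

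The first 30 of the 60 bases of the probes on which the results turn are shown here in lower case, as the array files give them, 5′ to 3′. Tbx18 is the reference point, Tpbg and Clstn2 had the largest changes in the null, and Slc17a5, Pls1 and Sh3bgrl2 each had probes with fitted changes of opposite sign in Tbx18VP16. Capitals mark a run of the bases A and C in alternation. All coordinates are mm9.
Tbx18, chr9:87599514-87599573, minus strand: gtgcagaagctggttaaatcttagtatatt
Tpbg, chr9:85739321-85739380, plus strand: tgtagtgcataagagcacctgcatccaaga
Clstn2, chr9:97344834-97344893, minus strand: acaaactgattcatgttggtggtcattacg
Slc17a5, brighter probe, chr9:78385399-78385458, minus strand: ctgaaatggACACACACACACACACACACa
Slc17a5, dimmer probe, chr9:78418831-78418890, minus strand: acttcctctttccggaataatatgctacta
Pls1, brighter probe, chr9:95715680-95715739, minus strand: ttggattttcaagtttctgagtttgtttct
Pls1, dimmer probe, chr9:95654565-95654624, minus strand: gctcaaaatagttctgtatccagcaatgaa
Sh3bgrl2, brighter probe, chr9:83493811-83493870, plus strand: ttgtatttgtctctcaaggcattggtgaaa
Sh3bgrl2, dimmer probe, chr9:83471168-83471227, plus strand: gaagcctgcgcagggcaaccctctgccacc
The probe of Tbx18 begins at base 2740 of the transcript it was designed on, that of Tpbg at base 2276 and that of Clstn2 at base 4271. The brighter probe of Slc17a5 is the 1 member probe among 218 with at least 5 repeats of the pair CA, and 0.61% of all probes have such a run.

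Between 60.1% and 66.0% of the 39429 probes common to both designs were well above background on an array, and no spot was saturated. Levels are log2 of the signal relative to the 75th percentile of the array, and changes are differences of these levels, so a change of 1 is a doubling. Probes well above background on 3 or more of the 6 arrays were tested for the null, and those so on 2 or more of the 8 arrays for Tbx18VP16. Each gene was read by its brightest tested probe. This left 98 members for the null and 104 for Tbx18VP16, while 57 members were tested in neither, most of them too dim. Of all 161, 86 were well above background on all 8 arrays and 50 on none. A gene is called changed at an adjusted p (Benjamini-Hochberg over all genes tested, limma) under 0.05. All 10 marker genes of mesenchyme were well above background on all arrays. Pools of 1 number in control and null moved together, and results that change when the pool number enters the fit as a block are given both ways. P-values measure the spread between pools.

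The label of the null pools was checked on Tbx18 itself. Its level was -0.02, 1.20 and 1.04 in control pools 1 to 3, -2.40, -1.34 and -2.35 in null pools, and 1.34 and 1.06 in Tbx18VP16 pools. All null pools lay below all others. The change was -2.77 ± 0.44 (SE) in the null, and its adjusted p (limma) was 0.118, or 0.0324 once the replicate block was in the fit. In Tbx18VP16 it was 0.46 ± 0.45 (SE, adjusted p = 0.583, limma), and the labels do not say which part of the transcript the altered alleles keep at this probe.

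In Tbx18_null pools no neighbour of Tbx18 was called, and the changes of most were small. Of 98 tested members, 42 were higher and 56 lower than in control, with a median change of -0.05 against 0.01 for all 19727 genes tested and -0.03 for the other 918 tested genes of chromosome 9. The median size of the change, without its sign, was 0.16 for members, 0.15 for all genes and 0.15 for other chromosome 9 genes. None of 98 members and none of 19727 genes (0%) was called by limma, while 3 members and 953 genes (4.83%) had an unadjusted p under 0.05. In 7 of the 98 the null pools did not overlap the control pools, 4 higher and 3 lower, which was 7.14% of the members beside 7.75% of all genes. With the replicate block, 2 members were called, Tpbg up and Clstn2 down, beside 184 of 19727 genes (0.933%). Without pair 1 or pair 2 of pools the blocked fit called no member, beside 15 and 11 genes in all. Without pair 3, which is the pair on slide 2 with 10 ng of input RNA, it called 7 of 91 members (7.69%), beside 896 of 18801 genes (4.77%). Null pool 3 also stood apart in markers of other cell types. Hba-x, an erythroid marker, was at 6.53 in it, -1.79 and 1.84 in null pools 1 and 2 and 1.08 in control pool 3. Cldn5, an endothelial marker, was at 2.36, -1.80, -0.62 and -2.14 in the same pools. The part of these cells in the calls was not tested.

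Tpbg, which encodes a glycoprotein of the cell surface that dampens canonical WNT signalling, had the largest rise among the neighbours in the null. It lies 1.86 Mb below Tbx18. Its level was -0.85, -0.14 and -0.94 in control pools, 0.70, 1.92 and 1.69 in null pools, and 1.07 and 0.68 in Tbx18VP16 pools. Every null and every Tbx18VP16 pool lay above every control pool. The change in the null was 2.08 ± 0.39 (SE, n = 3 and 3), and its adjusted p (limma) was 0.200, or 0.0452 with the block. Within pairs of the same number it was 1.55, 2.06 and 2.63, the last on slide 2 and the others on slide 1. Without pair 1 the blocked adjusted p (limma) was 0.0924, and without pair 2 it was 0.121. In Tbx18VP16 the change of Tpbg was 1.52 ± 0.41 (SE, adjusted p = 0.0776, limma).

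Clstn2 encodes calsyntenin-2, a membrane protein of the cadherin superfamily, and had the largest fall among members in the null. It stands near the far edge of the region, 9.74 Mb above Tbx18. Its level was 2.59, 2.11 and 2.54 in control pools, 1.02, 0.40 and 0.09 in null pools, and 0.51 and 0.57 in Tbx18VP16 pools. All 5 pools of the altered genotypes lay below all 3 controls. In the null the change was -1.92 ± 0.31 (SE), and its adjusted p (limma) was 0.130, or 0.0445 with the block. It was -1.58 and -1.72 within the pairs on slide 1 and -2.45 within the pair on slide 2. The blocked adjusted p (limma) was 0.115 both without pair 1 and without pair 2. Sums of cell type markers moved with both genes. The log2 of the summed level of 5 nephron progenitor markers was 4.68 to 5.25 in control, 5.36 to 5.71 in null and 5.71 to 5.82 in Tbx18VP16 pools. For 10 markers of ureteric and periureteric mesenchyme, Tbx18 among them, it was 6.96 to 7.10 in control, 6.40 to 6.65 in null and 6.45 to 6.68 in Tbx18VP16 pools. On both sums, as for Clstn2 and Tpbg, no pool of an altered genotype overlapped the controls. The brightest markers weigh most in a sum, and single markers did not all move alike. In the null, Osr1 (0.96) and Ptch1 (0.19) were higher and the other mesenchyme markers lower. In Tbx18VP16, Foxd1 (0.97), Tbx18 (0.46), Pdgfrb (0.28), Osr1 (0.27) and Ptch1 (0.25) were higher. Bmp4 (-1.58), Tcf21 (-0.95), Tshz3 (-0.41), Vim (-0.18) and Pdgfra (-0.09) were lower. Of the nephron progenitor markers, Eya1 had a change of -0.01 in the null and the others were higher. The part of these cell types in the changes of Clstn2 and Tpbg was not tested.

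In Tbx18VP16, Clstn2 fell by 1.87 ± 0.32 (SE, adjusted p = 0.0171, limma). Both comparisons use the same 3 control pools. The difference between Tbx18VP16 and null was 0.04 ± 0.32 (SE, adjusted p = 0.951, limma) for Clstn2 and -0.56 ± 0.41 (SE, adjusted p = 0.454) for Tpbg.

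Nearest to Tbx18, none of the 16 named genes tested within 1.5 Mb was called in either comparison, beside 0% of all genes in the null and 5.32% in Tbx18VP16. The null fit without the block called no gene at all, not even Tbx18. At a share of 5.32% few or no calls fall among 16 genes, so the count does not show that these genes were unchanged. Syncrip is counted 2 times among the 16, since a probe listed as 2810019C22Rik was also matched to it. In the null, 8 of them were higher and 8 lower. Null and control pools did not overlap for 1 of the 16, beside 7.75% of all genes. That 1 gene was Ripply2, 0.69 Mb below Tbx18, which encodes a corepressor that binds T-box factors during the segmentation of the somites. It stood at -3.30, -3.25 and -3.65 in control, -2.94, -2.63 and -2.59 in null and -3.65 and -3.60 in Tbx18VP16 pools. Its change was 0.68 ± 0.24 (SE, adjusted p = 0.802, blocked 0.199, limma) in the null and -0.22 ± 0.24 (SE, adjusted p = 0.612) in Tbx18VP16. The transcript listed as ENSMUST00000181359, 0.03 Mb above Tbx18, was the closest of all tested members. It was at -4.12, -3.35 and -3.42 in control, -3.60, -2.29 and -3.57 in null and -3.01 and -3.25 in Tbx18VP16 pools, so that null and control overlapped. Its changes were 0.48 ± 0.42 (SE) in the null and 0.50 ± 0.44 (SE) in Tbx18VP16, neither called.

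**Figure D1:**
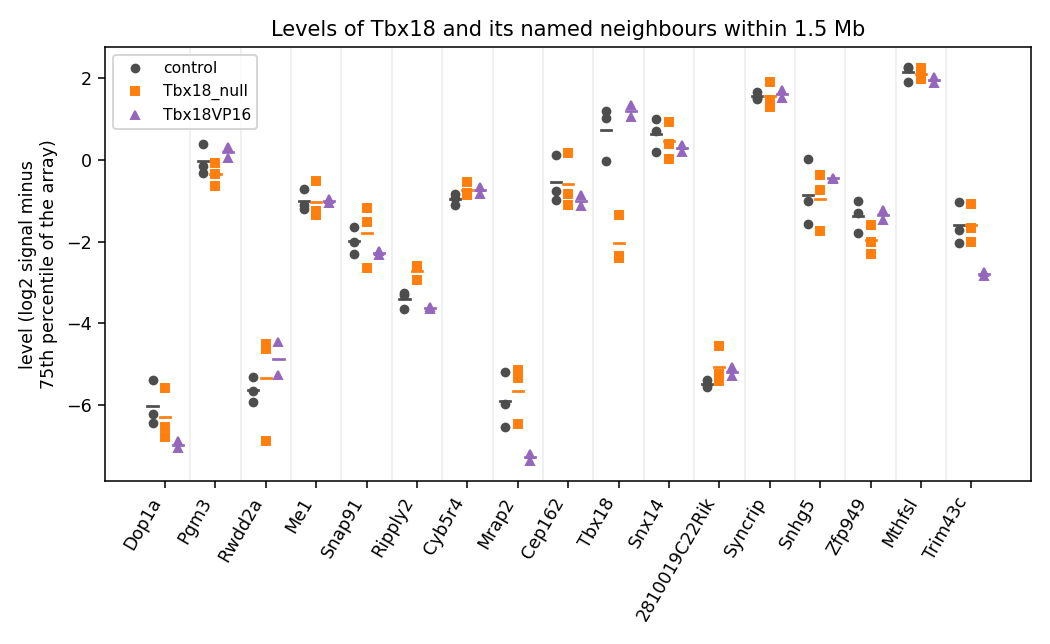
Level of Tbx18 and of its 16 named and tested neighbours within 1.5 Mb, in order of position. Each point is 1 array, a short line is the group mean, and the y axis is log2 signal minus the 75th percentile of the array. Tbx18 is far lower in the 3 null pools, while its neighbours overlap between null and control except Ripply2.

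Other close neighbours covered a range of cell functions. Snap91, which encodes a clathrin assembly protein, changed by 0.20 ± 0.42 (SE) and Cyb5r4, a cytochrome b5 reductase, by 0.23 ± 0.23 (SE). Snx14, a sorting nexin 0.68 Mb above Tbx18, had a change of -0.18 ± 0.33 (SE). Syncrip, an RNA-binding protein of the hnRNP family, had a change of 0.00 ± 0.25 (SE) on its brighter probe. Zfp949, a zinc finger gene 0.87 Mb above Tbx18, was at -0.61 ± 0.31 (SE, adjusted p = 1, blocked 0.122, limma) and was 1 of 2 of the 16 with a change over 1.5-fold. The other was Ripply2. None of these values passed the test.

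In Tbx18VP16 pools, the same 16 genes were higher in 7 cases and lower in 9. Control and Tbx18VP16 pools did not overlap in 6 of the 16, beside 47.6% of all genes. Mrap2, which encodes an accessory protein of melanocortin receptors and lies 0.52 Mb below Tbx18, had the largest fitted difference, -1.38 ± 0.49 (SE, adjusted p = 0.147, limma). It was at -5.20, -6.53 and -5.98 in control and -7.38 and -7.19 in Tbx18VP16 pools. As it was well above background on neither Tbx18VP16 array, the fall is bounded only at 1.31-fold or more. Trim43c, of a tripartite motif family, 1.14 Mb above Tbx18, was at -1.03, -2.04 and -1.72 in control and -2.73 and -2.85 in Tbx18VP16 pools. Its change was -1.20 ± 0.37 (SE, adjusted p = 0.110, limma). Dop1a, too, was well above background on neither Tbx18VP16 array, and its level is bounded only at 1.22-fold lower or more. Rwdd2a had the highest value of the 16, at 0.77 ± 0.67 (SE), and Syncrip was at 0.06 ± 0.25 (SE).

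Further out, 10 of 104 members (9.62%) were called in Tbx18VP16 against control, 4 higher and 6 lower, beside 1096 of 20617 genes (5.32%) in limma. The closest of the 10 was Zic1, 3.66 Mb above Tbx18, with 37 tested members lying nearer. Filip1, Trpc1, Ddx43 and Sh3bgrl2 rose, and Zic1, Clstn2, Slc17a5, Pls1 and the transcripts D9Wsu90e and C920006O11Rik fell. Transcripts with clone names are named here because their values stood out, after those values were seen. Pools of the 2 groups did not overlap in 57 of 104 members (54.8%), beside 47.6% of all genes. Over all genes, 830 (4.03%) were called with the pools of control and null treated as random blocks, and 300 (1.46%) without control pool 2. Among members the count was 6 with these blocks, and all 4 rises were then lost. It was 2 without control pool 2 (C920006O11Rik and Clstn2) and 0 without either of the Tbx18VP16 pools, where the lone pool is assumed to vary like the other groups.

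**Figure D2:**
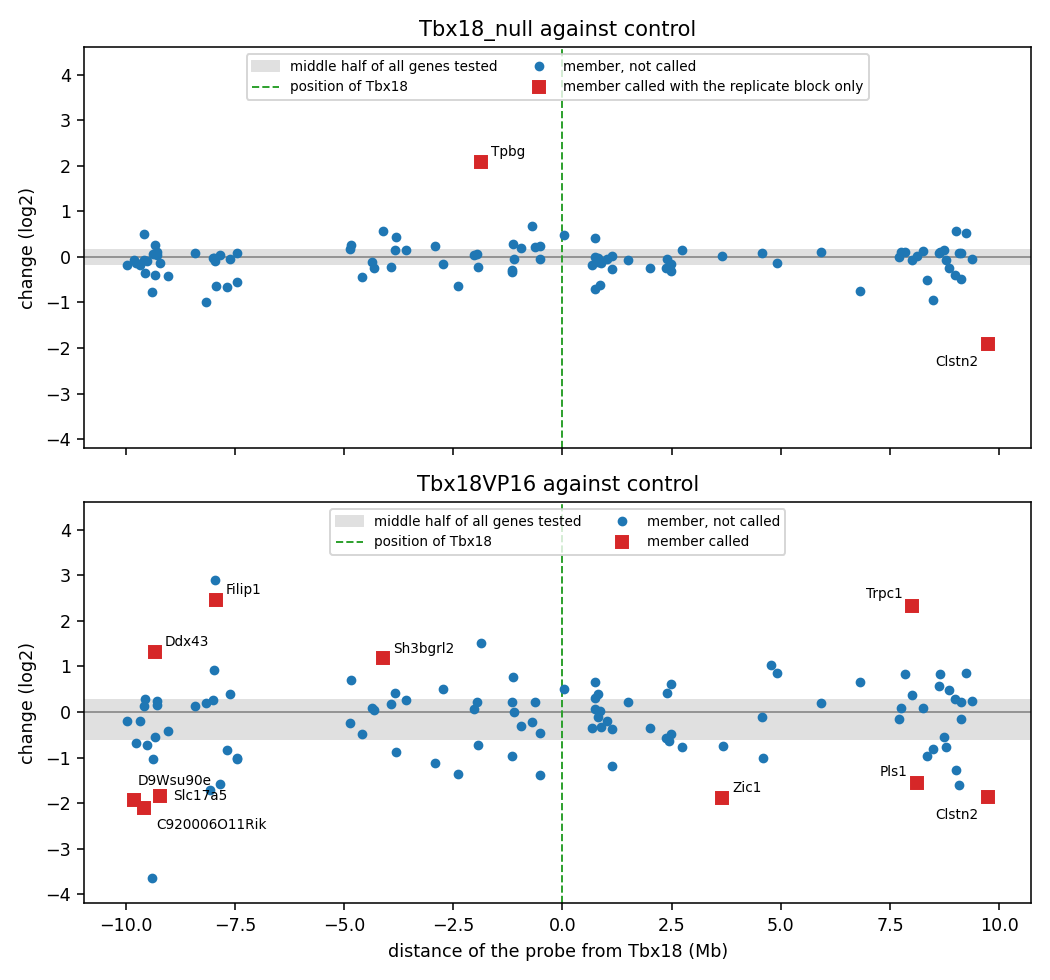
Change of each tested member against the distance of its probe from Tbx18, for the null (top) and Tbx18VP16 (bottom). Red squares are called members (with the replicate block in the null), blue points are members not called, and the grey band runs from the lower to the upper quartile of all genes tested. In the null, Tpbg at 2.08 and Clstn2 at -1.92 stand apart, and in Tbx18VP16 the called members begin at 3.66 Mb.

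Filip1, which encodes a protein that binds filamin, showed the largest called rise. It was at -4.53, -4.30 and -4.65 in control pools, -5.53, -5.86 and -4.02 in null pools and -2.16 and -1.91 in Tbx18VP16 pools. Filip1 rose by 2.46 ± 0.50 (SE, adjusted p = 0.0324, random block 0.116, limma), and the difference from the null was 3.096 ± 0.50 (SE, adjusted p = 0.0213). Filip1 was called in 13 of 19 alternatives, with adjusted p (limma) from 0.00468 to 0.298. Trpc1, a cation channel of the plasma membrane, was at -7.09, -6.95 and -5.82 in control and -4.04 and -4.54 in Tbx18VP16 pools. It rose by 2.33 ± 0.40 (SE, adjusted p = 0.0177, random block 0.0665, limma), and was well above background on 1 of 3 control arrays. With normexp background correction its change was 0.57 (adjusted p = 0.213, limma), and over 18 alternatives the adjusted p ran from 0.00793 to 0.213. Ddx43, a DEAD-box RNA helicase, was at -3.78, -4.37 and -3.41 in control and -2.57 and -2.49 in Tbx18VP16 pools, a rise of 1.33 ± 0.31 (SE, adjusted p = 0.0492, random block 0.0591, limma). Ddx43 was called in 7 of 19 alternatives, with adjusted p (limma) from 0.0126 to 0.364.

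Among the falls, Zic1 encodes a zinc finger transcription factor of the neural tube and somites. It was at -3.98, -4.49 and -4.78 in control pools, -3.82, -4.79 and -4.55 in null pools and -6.30 and -6.29 in Tbx18VP16 pools. Its probe was well above background on neither Tbx18VP16 array, so the fall is a bound: the level was at least 3.65-fold lower (fitted change -1.88 ± 0.35, SE, adjusted p = 0.0253, limma). With normexp background correction the change was -1.07 (adjusted p = 0.0917, limma), and over 18 alternatives the adjusted p ran from 0.00818 to 0.252. Its neighbour Zic4, read above background on 2 of the 8 arrays and on neither of Tbx18VP16, was at least 1.26-fold lower (adjusted p = 0.229, limma). C920006O11Rik, an RNA of unstated function 9.57 Mb below Tbx18, had the smallest p among members. It was at -3.23, -3.15 and -3.62 in control, -3.01, -2.76 and -2.73 in null and -5.30 and -5.57 in Tbx18VP16 pools, a fall of 2.10 ± 0.25 (SE, adjusted p = 0.00463, limma). D9Wsu90e, 231 kb away, fell by 1.94 ± 0.32 (SE, adjusted p = 0.0159), from -2.37, -2.66 and -3.37 to -4.71 and -4.75.

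**Figure D3:**
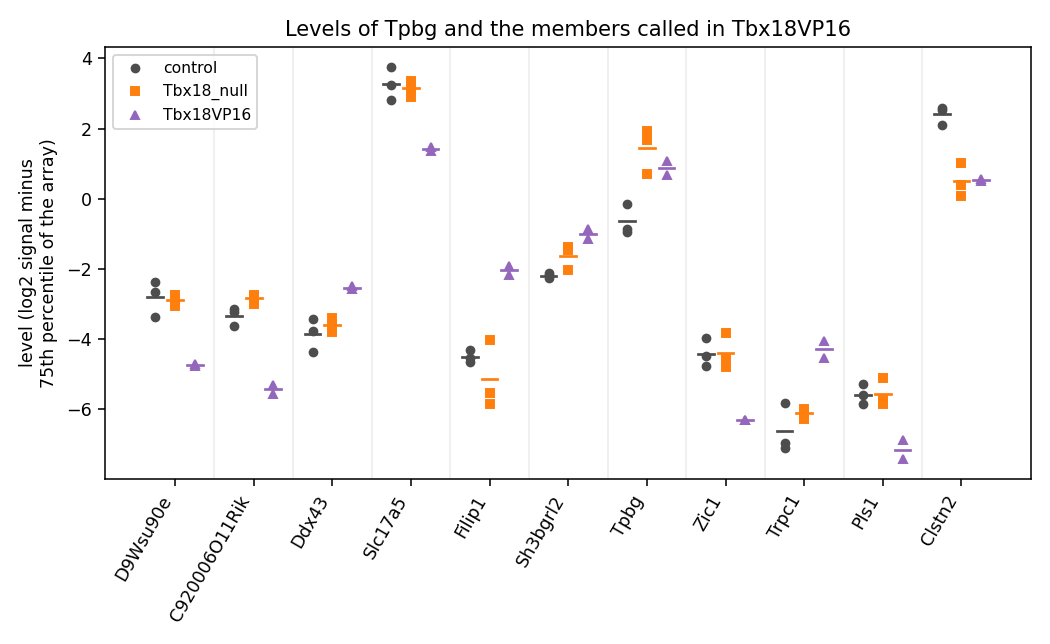
Level of Tpbg and of the 10 members called in Tbx18VP16, in order of position. Each point is 1 array, a short line is the group mean, and the y axis is log2 signal minus the 75th percentile of the array. The null pools lie with the controls for 4 of the 6 genes that fell (D9Wsu90e, Slc17a5, Zic1 and Pls1) and with Tbx18VP16 for Clstn2, while those of C920006O11Rik lie above the controls.

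Summed markers of some other cell types lay apart between Tbx18VP16 and control pools, while those of others overlapped. The log2 of the summed level of 5 platelet markers was 2.09 to 3.08 in Tbx18VP16 pools, against -4.30 to -3.39 in control and -3.77 to 0.63 in null pools. All 5 markers were well above background on both Tbx18VP16 arrays, and 1 of 5 was so on all control arrays. The same sum for 6 erythroid markers was 2.21 to 4.30 in control, 1.96 to 8.57 in null and 1.21 to 2.70 in Tbx18VP16 pools. Control and Tbx18VP16 thus overlapped on it. They also did for 5 markers of white blood cells, at -1.34 to -0.63 in control, -1.39 to -0.36 in null and -1.32 to -1.03 in Tbx18VP16 pools. Of these, Tyrobp (3.68), Fcgr3 (3.06) and Laptm5 (0.55) were higher in Tbx18VP16 and Csf1r (-0.86) lower, none called, and Ptprc was not tested. For 5 endothelial markers the sum was 0.08 to 0.94 in control, 0.77 to 2.90 in null and -0.69 to -0.57 in Tbx18VP16 pools. Kdr, by far the brightest of them in control, had a change of -1.34 in Tbx18VP16 (adjusted p = 0.0415, limma). Pecam1 (-0.39), Cdh5 (-0.29) and Cldn5 (-0.46) were lower and not called, and Tek was not tested. For 8 markers of ureteric epithelium the sum was 1.30 to 1.94 in control, 1.70 to 3.68 in null and 2.02 to 2.25 in Tbx18VP16 pools. Epcam (-0.12) and Cdh1 (fitted -1.26, well above background on neither Tbx18VP16 array) were lower in Tbx18VP16 and the others higher, none called. On the platelet, erythroid, white blood cell, endothelial and epithelial sums the highest null value was that of null pool 3. The sums of nephron progenitor and mesenchyme markers given above also lay apart from control, and of the former Wt1 rose by 2.61 (adjusted p = 0.00444, limma) and Meox1 by 3.89 (adjusted p = 0.0165, limma). Six2, Cited1 and Eya1, the other nephron progenitor markers, had changes of 0.59, 1.78 and 0.19 and were not called. The part of these cell types in the changes of the neighbours of Tbx18 was not tested. In such pools, fewer cells of a type and less RNA per cell cannot be told apart.

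Set directly against the null in the same fit, Tbx18VP16 differed in 8 of 104 members (7.69%), 2 higher and 6 lower, beside 756 of 20617 genes (3.67%, limma). The 8 were Filip1 and Trpc1, which were higher, and Zic1, Slc17a5, Pls1, D9Wsu90e, C920006O11Rik and the predicted gene Gm6328, which were lower. Gm6328, well above background on neither Tbx18VP16 array, was not called against control, where it was at least 1.48-fold lower (adjusted p = 0.0842, limma). Ripply2 had a difference of -0.90 ± 0.24 (SE, adjusted p = 0.0773). Without control pool 2 the count was 2, without null pools 1, 2 and 3 it was 5, 1 and 4, and without either Tbx18VP16 pool it was 0. With the random block it was 4, beside 573 of all genes (2.78%). Over all genes the calls were 327 without control pool 2 (1.6%). Without null pools 1, 2 and 3 they were 647, 170 and 440 (3.16%, 0.835% and 2.16%).

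By distance, the size of the change without its sign did not run the same way in both comparisons. In the null its median was 0.21 for the 14 members under 1 Mb from Tbx18, 0.23 for 18 members at 1 to 2.5 Mb, 0.16 for 16 members at 2.5 to 5 Mb and 0.12 for 50 members at 5 to 10 Mb. In Tbx18VP16 it was 0.32 for the 14 members under 1 Mb, 0.48 for 19 at 1 to 2.5 Mb, 0.71 for 19 at 2.5 to 5 Mb and 0.70 for 52 at 5 to 10 Mb, beside 0.43 for all genes tested and 0.40 for other chromosome 9 genes. The bins under 2.5 Mb thus held the larger medians in the null and the smaller ones in Tbx18VP16. The 3 nearer bins hold fewer than 20 members each, and the order of the bins was not tested. Across genes, which are not independent and share arrays, Spearman's rho of distance and size was -0.01 over 98 members in the null and 0.21 over 104 in Tbx18VP16. Under 1 Mb, 0 of 14 members were called in Tbx18VP16, and at 5 to 10 Mb 8 of 52 were, beside 5.32% of all genes and 4.10% of other chromosome 9 genes. At those shares few or no calls fall among 14 genes, and no difference between the bins was tested.

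**Figure D4:**
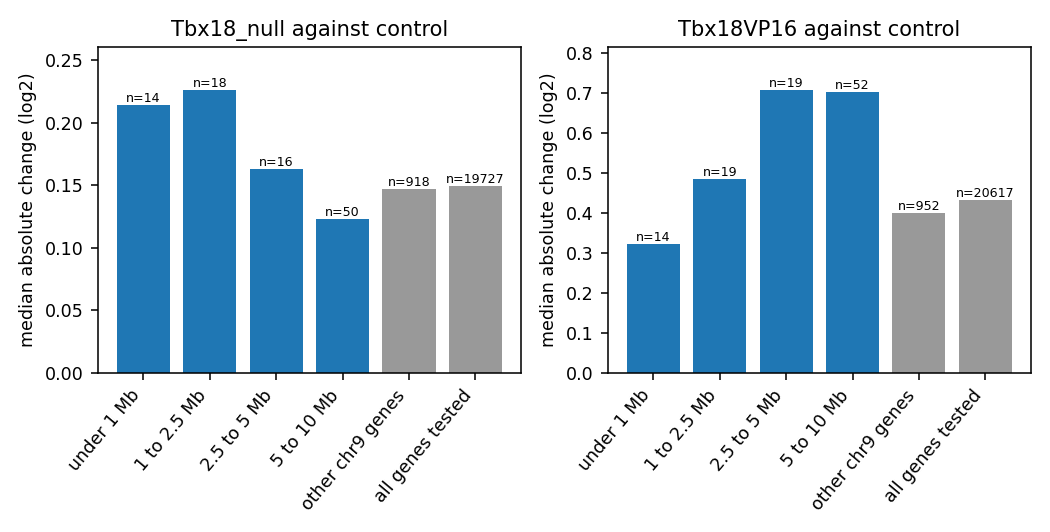
Median size of the change, without sign, of members in 4 bins of distance from Tbx18 (blue bars), of other tested genes of chromosome 9 and of all genes tested (grey bars), with the number of genes above each bar. The median is 0.21 under 1 Mb in the null and 0.32 in Tbx18VP16, and the y axes of the panels differ.

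With its sign, the median change of members in Tbx18VP16 was -0.06, beside -0.14 for all genes tested and -0.16 for other chromosome 9 genes. The scaling sets where 0 lies in this comparison. Centring on the median of each array in place of the 75th percentile moved the median of all genes from -0.14 to 0.06 and that of members to 0.15. Calls over all genes were 420 higher and 676 lower with the 75th percentile, and 553 higher and 406 lower with median centring. The members' split of 4 higher and 6 lower was the same under both.

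Grouped by role, 10 tested genes formed the matrix and cell surface list, which also holds Filip1 and Pls1, whose proteins bind filamin and actin inside the cell. None of the 10 was called in the null without the block, beside 0% of all genes. With it 1 rose (Tpbg) and 1 fell (Clstn2), beside 0.933% of all genes. In Tbx18VP16, 1 rose (Filip1) and 2 fell (Clstn2 and Pls1), beside 5.32% of all genes called, and Filip1 was not called with the random block (adjusted p = 0.116, limma). The median change was -0.29 in the null and -0.19 in Tbx18VP16, beside 0.01 and -0.14 for all genes. Col12a1, a fibril-associated collagen, was at -2.66, -0.61 and -1.01 in control and -3.52, -1.86 and -1.89 in null pools, so that the lowest control lay below 2 null pools. Its change was -0.998 ± 0.65 (SE, adjusted p = 1, blocked 0.0671, limma). Dipk2a, 6.82 Mb above Tbx18, is in none of the role lists. Its level was -0.39, 0.83 and 0.98 in control and -1.27, 0.23 and 0.18 in null pools. It was lower in the null in every pair, and the mean difference was -0.76 ± 0.53 (SE, adjusted p = 1, blocked 0.0874, limma).

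Of 7 tested genes of transcription and chromatin, 1 fell in Tbx18VP16 (Zic1) and none of 6 was called in the null, beside 5.32% and 0% of all genes. The fall of Zic1 is a bound, as given above, and was not called with normexp background correction. Phip, a bromodomain protein, had a change of 0.71 ± 0.24 (SE, adjusted p = 0.129, limma) in Tbx18VP16. Among 6 genes of RNA processing and stability none was called in either comparison, beside the same shares. Tent5a, a poly(A) polymerase 2.38 Mb below Tbx18, was at 0.96, 0.65 and 0.43 in control, 0.72, 0.24 and -0.80 in null and -0.46 and -0.91 in Tbx18VP16 pools. Its changes were -0.63 ± 0.41 (SE) in the null and -1.37 ± 0.43 (SE, adjusted p = 0.115, limma) in Tbx18VP16. Xrn1, the main cytoplasmic exonuclease that degrades RNA from its 5′ end, was at -0.96 ± 0.50 (SE) in Tbx18VP16.

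None of 9 genes of metabolism and none of 4 of the cell cycle and checkpoint list was called in either comparison, beside 5.32% of all genes in Tbx18VP16 and 0% in the null. In Tbx18VP16 the fatty acid elongase Elovl5 had a change of -0.67 ± 0.22 (SE, adjusted p = 0.119), and Rnf7, a subunit of cullin ubiquitin ligases, -0.76 ± 0.26 (SE, adjusted p = 0.138, limma). Ttk and Atr, kinases of the mitotic and DNA damage checkpoints, were at 0.42 ± 0.29 and 0.09 ± 0.23 (SE). Of 13 tested genes of membrane traffic and signalling, 2 rose in Tbx18VP16 (Trpc1 and Sh3bgrl2), beside the same 5.32%, and none of 12 was called in the null. With the random block neither was called (adjusted p = 0.0665 and 0.0724, limma). Tmem30a, a subunit of phospholipid flippases, was at 0.91 ± 0.35 (SE, adjusted p = 0.174) in Tbx18VP16. Of the 8 genes listed for apoptosis and phospholipid scrambling, 5 lay in the region and 3 were tested in Tbx18VP16, none called. Plscr1, a phospholipid scramblase, was at 1.52, 1.30 and 1.42 in control and 1.31 and 1.30 in Tbx18VP16 pools, a change of -0.11 ± 0.22 (SE, adjusted p = 0.804, limma). Plscr4 of the same family had a change of 1.02 ± 0.59 (SE, adjusted p = 0.343), and Plscr2, well above background on neither Tbx18VP16 array and on 1 of 3 control arrays, gave no measurable fold.

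Different probes of 1 gene did not always move together. Of 28 members with at least 2 tested probes, all probes had the same sign in 19 in the null and 17 in Tbx18VP16. Slc17a5, which encodes the sialic acid exporter of lysosomes, was called down in Tbx18VP16 on the probe with the run of A and C. That probe was at 3.76, 3.25 and 2.83 in control and 1.49 and 1.37 in Tbx18VP16 pools, a change of -1.85 ± 0.31 (SE, adjusted p = 0.0168, limma). The other probe, without the run, was at -2.88, -2.45 and -2.97 in control and -2.31 and -2.70 in Tbx18VP16 pools, a change of 0.26. With the mean of the probes Slc17a5 was not called (-0.79, adjusted p = 0.158, limma; 0.00544 to 0.224 over 19 alternatives).

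Pls1, which encodes the actin-bundling protein plastin 1, lies 108 kb from Trpc1 and was called down on its brighter probe. The levels were -5.29, -5.60 and -5.85 in control and -6.88 and -7.41 in Tbx18VP16 pools, the latter not well above background. The fall was at least 1.65-fold (fitted change -1.57 ± 0.32, SE, adjusted p = 0.0336, limma). The dimmer probe was at -7.75, -6.57 and -7.92 in control and -5.78 and -6.03 in Tbx18VP16 pools, and was well above background on no array of either group, so that its fitted difference of 1.51 measures no change. With the mean of both probes the change was -0.03 (adjusted p = 0.967, limma; 0.00654 to 0.967 over 18 alternatives).

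Sh3bgrl2, of a family of small thioredoxin-like proteins, was called up on its brightest probe, from -2.26, -2.12 and -2.18 in control to -1.15 and -0.87 in Tbx18VP16 pools. It rose by 1.18 ± 0.27 (SE, adjusted p = 0.0451, random block 0.0724, limma). The dimmer probe shown, well above background on all these arrays, was at -3.70, -3.92 and -4.73 in control and -4.78 and -4.93 in Tbx18VP16 pools, a change of -0.74. Another of its probes had a change of 0.97. With the mean of the tested probes the change was 0.47 (adjusted p = 0.308, limma; 0.0168 to 0.390 over 19 alternatives). Filip1, Trpc1, Ddx43, Clstn2, Tpbg, C920006O11Rik and D9Wsu90e had 1 probe each, so no second probe was there to compare.

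**Figure D5:**
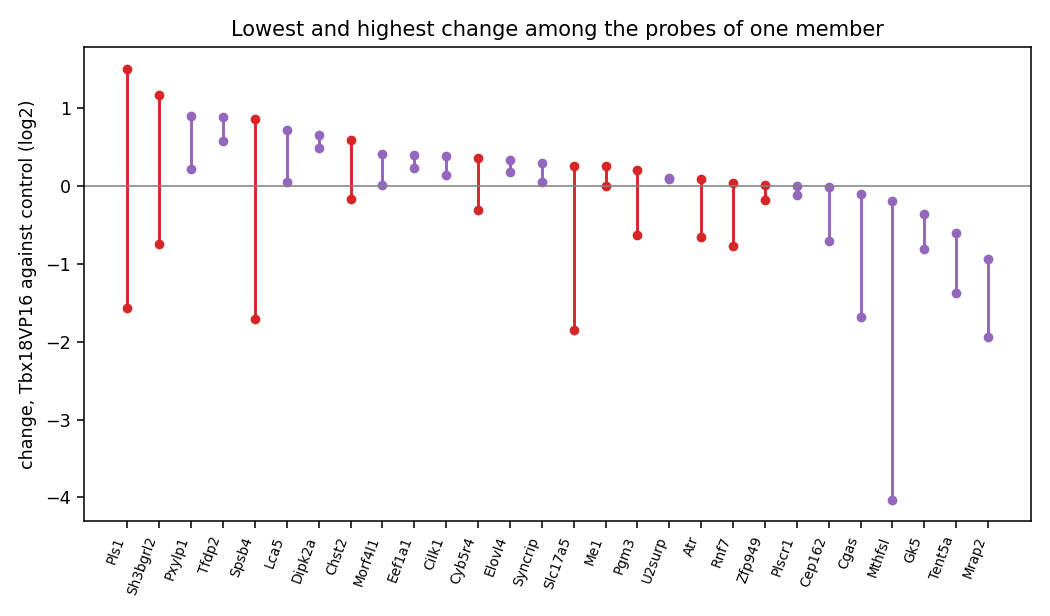
Lowest and highest change in Tbx18VP16 against control among the tested probes of each of the 28 members with more than 1. The y axis is the log2 change and each line joins the lowest and highest value of 1 gene, in red where the signs differ. Slc17a5 runs from -1.85 to 0.26. Both ends of Pls1 rest on probes not well above background in Tbx18VP16 and are fitted values only.

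The promoters of members were searched for the T-box binding sequence AGGTGTGA on both strands. In RefSeq promoters of build GRCm38.p6, 250 bases before to 50 after the start, it was found in 2 of 120 promoters of 99 matched members (1.67%) and in 1.28% of all 32851 promoters. Its first 6 bases, AGGTGT, which every full site also holds, were found in 8 of the 120 (6.7%) and in 13.7% of all. The promoters with the full site were those of Dop1a and Xrn1, neither of which was called, and both are shown for 60 bases around the site, which is in capitals and lies on the other strand.
Dop1a: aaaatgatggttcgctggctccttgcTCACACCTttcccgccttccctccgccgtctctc
Xrn1: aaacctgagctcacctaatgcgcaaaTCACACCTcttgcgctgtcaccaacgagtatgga
The site began 110 bases before the start of Dop1a and 120 bases before that of Xrn1. Dop1a, which takes part in traffic between endosomes and the Golgi apparatus, was at -5.38, -6.44 and -6.22 in control, -5.57, -6.54 and -6.80 in null and -7.05 and -6.89 in Tbx18VP16 pools. Its change was -0.29 ± 0.42 (SE) in the null. In Tbx18VP16, where its probe was not well above background, it was at least 1.22-fold lower (adjusted p = 0.240, limma). A match of letters shows no binding.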

How the data were processed

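RNA of 8 pools was hybridised to Agilent arrays of 1 colour, from 20 ng of RNA, except 10 ng for the pools numbered 3, per the labels. The authors deposited scanner files of spot intensity, made with Agilent Feature Extraction 10.7.3.1 per the submitters' processing notes, and their processed signal column was used. Control and outlier spots (1.86% to 2.55%) were left out and the 4 spots of a probe averaged. The log2 signal, less the 75th percentile of its array (976 to 2129 as a signal), was fitted with limma 3.58.1 in R 4.3.3 (lmFit and eBayes, two-sided). The null fit used 6 arrays, and the Tbx18VP16 fit took 3 group means on all 8. A fold is given as a lower bound where no array of the dimmer group had the probe well above background. The dimmer level is then the lowest such signal on each array, or the probe's own if higher. The authors' deposited value table, linear intensity values with scaling software not given in the sources used here, served as an alternative.

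Of the 161 members, 117 were named through RefSeq (GRCm38.p6). Gcm1 was counted as untested, since its brightest probe lies outside the region. Named genes were those within 1.5 Mb, the called ones, others ranked by p among changes over 1.5-fold, and up to 4 of each role list. The members and lists were chosen with earlier results of these data known. Deviations from group means correlated at 0.827, 0.707 and 0.429 between control and null pools of the same number and at -0.753 to 0.320 between others, so the numbers were taken as pairs. The fits were also run on simulated data with independent noise on each array. Such data do not hold the pairing of pools, so no conclusion is drawn from them here. Precision is limited by the number of arrays.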

Additional observations from a re-analysis of the deposited data

How the results depend on the processing

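Of the alternatives, the other design's coordinates, slide 1 alone and the block without each pair were chosen after seeing the data. In the null, 0 members were called without a block and 2 with the replicate block. In the fit of all 8 arrays 1 was called (Clstn2, adjusted p = 0.0481, limma). Leaving out a pool gave 0 in each case, and leaving out a pair from the blocked fit 0 to 7. With a pool left out, the median change ran from -0.127 to 0.0498, changing sign without control pool 1, and its size from 0.171 to 0.261, while with a pair left out the size was 0.153 to 0.221. Over all genes 0 were called, 184 with the replicate block, 62 in the fit of 8 arrays and 6 with slide as a block, and in the blocked fit 15, 11 and 896 without pairs 1, 2 and 3 (4.77% for pair 3).

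In Tbx18VP16 against control the 10 calls became 5 with normexp, 2 in the window of 5 Mb, 6 with the random replicate block and 26 with the fixed replicate block. The numbers of Tbx18VP16 pools are not a pairing: the difference of pool 1 and 2 correlated at -0.101 with that of control and -0.026 with that of null. Leaving out a pool gave 0 to 12. The median change, -0.06, was 0.0536 with quantile normalisation, 0.149 with median centring, 0.0477 in the authors' value table, 0.120 with no filter, 0.0660 with probes well above background on every array and -0.130 with the other design's coordinates. Its size, 0.53, was 0.464 with normexp, 0.409 with probes well above background on every array and 0.435 within 5 Mb, and 0.438 to 0.577 with a pool left out. Against the null, 8 calls became 3 with normexp, 4 with the stricter filter, 1 within 5 Mb, 4 with the random and 25 with the fixed replicate block, and 0 to 9 with a pool left out. In 17 of 21 alternatives no member under 3.5 Mb was called in Tbx18VP16 against control. The limit of 3.5 Mb was not planned and lies just inside the closest call of the fit reported, Zic1 at 3.66 Mb. Under it lie 36 tested members, and that fit called 5.32% of all genes. At that share few calls fall among 36 genes, and some alternatives called far fewer genes. In the other 4, Tpbg, Tent5a, Trim43c or 4930554C24Rik was. Of the 17, the window of 5 Mb and the other design's coordinates reuse the fit reported. Those that leave out a Tbx18VP16 pool rest on 1 pool of that group. None of these adds a separate check of the members under 3.5 Mb. Over all genes the 1096 calls became 658 with probes well above background on every array, 727 with normexp, 3636 with the fixed replicate block, 300 without control pool 2, and 45 and 39 without Tbx18VP16 pools 1 and 2. Against the null the 756 calls over all genes became 435 with normexp (2.11%) and 467 with the stricter filter (2.75%). They became 573 with the random and 3289 with the fixed replicate block (2.78% and 16%). The cause was not tested.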

Other observations

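The members with the largest difference in either direction in Tbx18VP16 were not called in the fit reported. They were singled out after their values were seen. Dppa5a, a gene of pluripotent and germ cells 9.39 Mb below Tbx18, was at -3.48, -0.59 and 1.12 in control pools, -3.44, -0.17 and -1.64 in null pools and -4.80 and -4.46 in Tbx18VP16 pools. Pool 1 was the lowest in both control and null, and the change in Tbx18VP16 was -3.64 ± 1.31 (SE, adjusted p = 0.151, limma). Without control pool 1 Dppa5a was called. Ooep, an oocyte gene beside it, was at least 1.86-fold lower (adjusted p = 0.187, limma), with its probe well above background on neither Tbx18VP16 array. The transcript 4930429F24Rik, 7.95 Mb below Tbx18, was at -5.47, -6.46 and -6.02 in control and -3.40 and -2.79 in Tbx18VP16 pools, a change of 2.89 ± 0.82 (SE, adjusted p = 0.0851, limma). It was called with the fixed replicate block, with the arrays of the 2 groups alone and without null pool 3. The second probe of Mthfsl, 0.98 Mb above Tbx18, was at -7.58, -3.33 and -0.93 in control, -7.73, -3.14 and -4.65 in null and -8.01 and -7.95 in Tbx18VP16 pools, while the brighter probe lay between 1.89 and 2.28 on all 8 arrays.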
